A study of Homo sapiens with 4 samples.

Results

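TCF7L2 peaks over promoters are the peaks of the TCF7L2 list with a height of at least 23 tags that share at least 1 bp with a protein-coding promoter, taken as 1000 bp before to 100 bp after a transcript start. There were 2442 of them among 15908 TCF7L2 peaks of that height (15.4%, 95% Wilson interval 14.8% to 15.9%) and 20955 TCF7L2 peaks of any height. Of the remaining peaks of at least 23 tags, 7252 lay in the body of a protein-coding gene and 6214 lay between genes. Intervals after a share are Wilson intervals and cover counting error only. Just inside the height limit were 180 promoter peaks of 23 tags, just outside it were 197 of 22 tags, and 1185 lay below it in all.

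The data are ChIP-seq peak lists of LNCaP, a line of human prostate cancer cells that respond to androgen. TCF7L2 was precipitated from cells at passage 15 grown in serum that had not been stripped. H3K27Ac was precipitated from cells at passage 20 held in charcoal-stripped serum, which has lost its steroid hormones, after 4 h with 10 nM dihydrotestosterone (DHT) or with ethanol vehicle. With 1 library per condition there is no measure of how cultures vary, and no difference was tested. An input library with no peak list was not analysed here.

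TCF7L2 (also known as TCF4) is a DNA-binding factor at the end of the Wnt pathway. When Wnt ligands stabilize beta-catenin, it enters the nucleus and binds TCF7L2, which activates target genes such as AXIN2, while without beta-catenin TCF7L2 can bind corepressors of the TLE family. Promoters are the stretches around transcript starts where RNA polymerase assembles, and the acetyl mark H3K27Ac lies on nucleosomes that flank active promoters and enhancers.

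Peak heights are tags at the highest point of the pileup. They were deposited without a read total, so heights of different lists stand side by side and are not scaled to each other. The DHT list held 60752 peaks of 10 to 213 tags and the vehicle list 57623 peaks of 9 to 212 tags. As a check of the cell type, 10 of 10 luminal prostate markers, among them FOXA1 and HOXB13, had H3K27Ac over the promoter with DHT and 9 of 10 had it with vehicle, whereas 0 of 3 basal markers (KRT5, KRT14 and TP63) and 0 of 3 leukocyte markers had it in either list. The check was less clear for other cell types, with H3K27Ac in both lists at 2 of 3 stromal markers (COL1A1, 37 tags with DHT and 34 with vehicle, and ACTA2, 22 with DHT and 24 with vehicle), at the endothelial marker CDH5 (47 tags in each) and at 1 of 3 neuroendocrine markers (SYP, 13 tags in each). In a longer list of basal genes, 3 of 10 had it (DST, ITGA6 and LAMB3). Promoter TCF7L2 peaks were found at 4 of 17 luminal genes (KRT8, ACP3, EPCAM and FOXA1; 23.5%, 9.56% to 47.3%) and at 4 of 10 basal genes (40%, 16.8% to 68.7%), beside 13.0% of all genes and 20.1% of genes with promoter H3K27Ac. Both intervals include 20.1%. Of the 4 basal genes, KRT5 and KRT15, keratins of basal cells, had 27 and 32 TCF7L2 tags and no H3K27Ac peak over the promoter, while DST had 64 TCF7L2 tags and LAMB3 had 28, both with H3K27Ac. The part that cell identity plays in this was not tested, and differences between the TCF7L2 and H3K27Ac lists cannot be told apart from the differences in serum and passage.

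Stretches of 100 bases on either side of the peak center show what the promoter peaks look like at the level of DNA. The peak center is the midpoint of the peak interval. SP5, CUX1, RPS27 and YAP1 are shown because their peaks were among the 15 tallest. AXIN2 is shown as a Wnt target with a tall peak and none of the letters in this stretch. RBBP8 is shown for its low DHT over vehicle ratio, described further on. PAM, which has CTTTGAT more than once, and TGIF1, which has a TGANTCA match (TGATTCA), were chosen after their values were seen. Capitals mark CTTTGAT and CTTTGAA, the core letters recognized by TCF and LEF factors, and TGANTCA, where N is any base. The letters recognized by AP-1 are among those that TGANTCA covers. Its matches were not split by the middle base, so not every match need be one of AP-1. Both strands were searched, so a match on the minus strand appears as its reverse complement. The TCF letters and TGANTCA can share bases where one runs into the other. All are written on the plus strand of GRCh37 (hg19), and no annotated exon overlaps them.
SP5: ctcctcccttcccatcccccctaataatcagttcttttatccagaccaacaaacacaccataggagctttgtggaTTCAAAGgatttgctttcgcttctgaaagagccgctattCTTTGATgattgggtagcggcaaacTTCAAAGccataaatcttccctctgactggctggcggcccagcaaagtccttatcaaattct
AXIN2: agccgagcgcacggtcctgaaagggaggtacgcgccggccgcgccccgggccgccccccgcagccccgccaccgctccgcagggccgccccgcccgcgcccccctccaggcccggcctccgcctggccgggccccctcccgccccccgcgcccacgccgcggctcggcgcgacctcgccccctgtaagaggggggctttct
PAM: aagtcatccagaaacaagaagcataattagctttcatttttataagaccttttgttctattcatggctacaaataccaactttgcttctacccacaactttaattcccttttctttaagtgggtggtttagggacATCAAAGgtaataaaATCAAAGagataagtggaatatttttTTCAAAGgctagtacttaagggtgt
CUX1: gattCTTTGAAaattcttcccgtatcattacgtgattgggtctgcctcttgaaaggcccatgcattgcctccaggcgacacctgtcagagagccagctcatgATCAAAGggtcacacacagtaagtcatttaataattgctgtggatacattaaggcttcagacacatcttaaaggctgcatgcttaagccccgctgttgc
RPS27: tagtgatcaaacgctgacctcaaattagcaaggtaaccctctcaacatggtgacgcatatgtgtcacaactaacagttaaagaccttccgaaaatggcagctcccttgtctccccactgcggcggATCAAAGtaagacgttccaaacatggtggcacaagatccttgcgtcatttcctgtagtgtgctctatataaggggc
RBBP8: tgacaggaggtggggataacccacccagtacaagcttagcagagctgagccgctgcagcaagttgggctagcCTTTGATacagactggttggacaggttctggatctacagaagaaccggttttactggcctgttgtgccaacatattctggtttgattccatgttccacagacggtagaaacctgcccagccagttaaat
YAP1: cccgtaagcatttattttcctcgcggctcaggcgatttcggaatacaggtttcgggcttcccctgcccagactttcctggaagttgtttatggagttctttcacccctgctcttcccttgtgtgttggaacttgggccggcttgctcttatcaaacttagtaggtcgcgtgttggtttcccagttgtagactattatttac
TGIF1: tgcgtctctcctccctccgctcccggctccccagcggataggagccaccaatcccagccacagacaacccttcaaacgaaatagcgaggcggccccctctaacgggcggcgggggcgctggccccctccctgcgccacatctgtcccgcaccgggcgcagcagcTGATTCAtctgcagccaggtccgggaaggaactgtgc

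The SP5 stretch lies at chr2:171571624-171571824, between genes, with its middle 123 bp upstream of the start of SP5, a zinc finger factor and Wnt feedback gene. It holds 1 CTTTGAT, centered 17 bp from the middle, between 2 copies of CTTTGAA. The PAM stretch (chr5:102199534-102199734), inside a gene that encodes an enzyme which amidates peptide hormones, holds 2 CTTTGAT and 1 CTTTGAA. In CUX1, a homeobox factor gene, the stretch at chr7:101741029-101741229 is intronic and holds a CTTTGAT whose middle is 5 bp from the peak center, with a CTTTGAA near its edge. RPS27 (chr1:153963019-153963219), which encodes a protein of the small ribosomal subunit, and RBBP8 (chr18:20493859-20494059), which encodes a factor that trims broken DNA ends, hold 1 CTTTGAT each. AXIN2 (chr17:63557329-63557529), a feedback inhibitor of the Wnt pathway, is 83.6% G and C over this stretch and holds none of the letters. Its peak of 162 tags is 1739 bp wide. The stretch covers only the middle of it and need not hold its highest point. YAP1 (chr11:101982574-101982774), a coactivator of the Hippo pathway, and TGIF1 (chr18:3448264-3448464), a homeobox corepressor gene, hold no CTTTGAT or CTTTGAA either. A match describes these letters only and is not evidence of a bound site.

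The window that defines the promoter peaks reaches 1000 bp upstream and 100 bp downstream, so that closeness to a start and a position upstream of it are largely set by that choice, and the distances are a description. The nearest start to a peak center was within 250 bp for 1817 peaks (74.4%), and the center lay upstream of it for 1944 (79.6%), with a median position of -94 bp, where negative is upstream. Most peaks reached 1 gene (2112), 314 reached 2 genes and 16 reached 3 or more, and 287 (11.8%) reached starts on both strands. In all, 2576 of 19821 protein-coding genes had a promoter peak, a share of 13.0%. A canonical start, the main one of its gene in the annotation, was reached by 1925 peaks (78.8%). The 517 that reached only other starts overlapped H3K27Ac less often (55.9%, against 84.9%) and were taller (median 37 tags, against 32). The share of genes with a promoter peak also increased with the number of starts a gene has. Among genes with H3K27Ac at the promoter, it was 16.5% (14.8% to 18.3%) for 1 start, 18.5% (17.4% to 19.5%) for 2 to 4 starts and 23.3% (22.1% to 24.6%) for 5 or more.

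**Figure D1:**
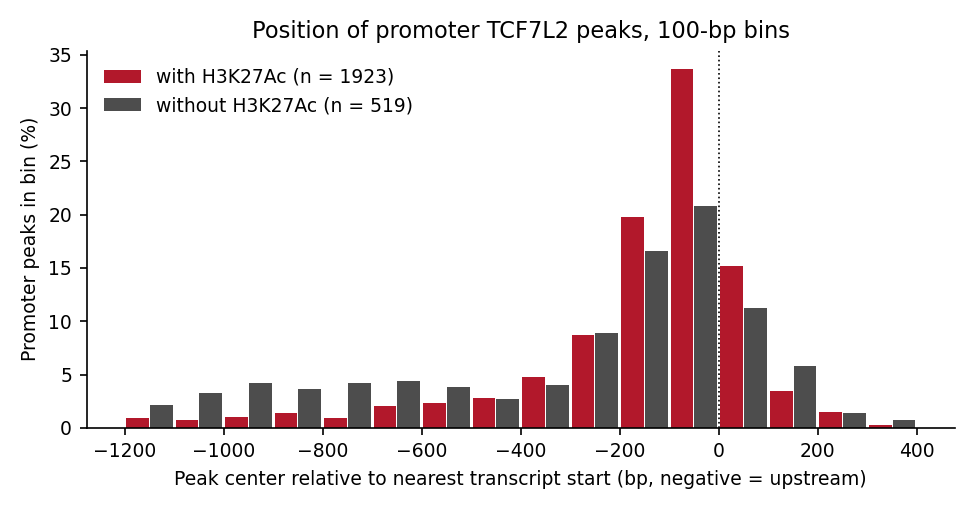
Distance of promoter TCF7L2 peak centers from the nearest transcript start in bins of 100 bp (x axis, negative is upstream), as a percentage of the 1923 promoter peaks with H3K27Ac in either list (red) and of the 519 without (grey). Both groups are highest in the bin from 100 to 1 bp upstream, which holds 33.7% of the peaks with H3K27Ac and 20.8% of those without, and the group without spreads further upstream.

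Height set the promoter peaks apart from the rest. Their median was 33 tags (quartiles 26 and 48, highest 225), against 41 tags (29 and 70, highest 229) for all other TCF7L2 peaks. Peaks of at least 100 tags made up 125 of the promoter peaks (5.12%) and 1924 of the others (14.3%). The median width was 359 bp in both. The DNA differed as well. Within 100 bp of the center, G and C made up a median of 59.2% at promoter peaks and 45.8% elsewhere, and 1276 promoter peaks (52.3%) were rich in CpG, with at least 55% G and C and at least 0.65 of the CpG pairs that base composition predicts, against 363 other peaks (2.70%). Across promoter peaks, Spearman's rho between height and G and C content was -0.14 (n = 2442), and between height and width it was 0.67. These are descriptions of peaks from 1 library.

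The 15 tallest promoter peaks divided between acetylated and unacetylated chromatin. YAP1 had the tallest, 225 TCF7L2 tags at chr11:101982210-101983139, with its center at -571 bp from a start, under H3K27Ac peaks of 100 tags with DHT and 105 with vehicle. SLC25A28, which encodes a mitochondrial iron carrier, had the fourth tallest (chr10:101380110-101380739), with H3K27Ac of 63 tags with DHT and 57 with vehicle. Others in acetylated chromatin were CTSB, the lysosomal protease cathepsin B (188 TCF7L2 tags), RPS27 (179), NAALADL2, a peptidase-like gene (173), and MIA3, which helps export collagen from the endoplasmic reticulum (172). These 6 of 15 overlapped both H3K27Ac lists, beside 76.4% of all promoter peaks. The H3K27Ac heights of the 6 ran from 41 tags at RPS27 to 169 at NAALADL2 with DHT, and from 35 to 160 at the same genes with vehicle.

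Among the 15 tallest, 8 overlapped no H3K27Ac peak at all, beside 21.3% of all promoter peaks. CPLX2, which encodes a regulator of synaptic vesicle release, had 214 TCF7L2 tags (chr5:175288230-175289069), with 2 CTTTGAT near the center of its peak. CUX1 had 213 tags, and a peak that reaches MC1R, the melanocortin receptor of pigment cells, and a second annotated gene with no symbol had 191. Then came GRHL3, a factor of surface epithelia, with 185 tags, ABCC2, an export pump of liver and kidney, with 184, and SPATA12 with 183. ENTREP2 (177 tags) and SP5 (172 tags) completed this group. CEP112, a centrosome protein gene, had 178 TCF7L2 tags and an H3K27Ac peak in the vehicle list alone, of 12 tags. Of the 15, 7 held CTTTGAT within 100 bp of the center, beside 8.03% of all promoter peaks and 21.6% of those of at least 100 tags. TGANTCA was held by 2 of the 15, beside 12.4% and 25.6%. A canonical start was reached by 6 of the 15, beside 78.8% of all promoter peaks.

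Some genes gathered several promoter peaks at their alternative starts. Of the genes with a promoter peak, 2395 had 1, 153 had 2 and 28 had 3 or more. SMAD3, which carries TGF-beta signals to the nucleus, had 7 in 2 groups on chromosome 15, at 67355940 to 67358249 with 124, 45 and 86 tags and at 67416300 to 67420589 with 123, 93, 24 and 24 tags. Only 1 of these 7 overlapped H3K27Ac, at 10 tags with DHT and 10 with vehicle. MEF2C, a factor of muscle and neurons, had 4 of 34 to 94 tags, all without H3K27Ac. NAALADL2 had 3, of 173, 38 and 30 tags, and ANXA2, a membrane-binding annexin, had 3, of 171, 114 and 46 tags. All 3 NAALADL2 peaks lay in tall H3K27Ac peaks of 169 to 173 tags with DHT and 160 to 175 with vehicle.

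Most promoter TCF7L2 peaks lay in acetylated chromatin. With DHT, 1908 (78.1%, 76.4% to 79.7%) overlapped an H3K27Ac peak, where the share over all TCF7L2 peaks was 31.9%, and 3164 of the other peaks did so (23.5%). With vehicle, 1880 (77.0%, 75.3% to 78.6%) did, where the share over all TCF7L2 peaks was 31.4%. Either list overlapped 1923 promoter peaks (78.7%, 77.1% to 80.3%), beside 33.3% of all TCF7L2 peaks, 29.1% of those in gene bodies and 20.4% of those between genes. Both H3K27Ac lists overlapped 1865 promoter peaks, and 519 (21.3%) overlapped neither, beside 66.7% of all TCF7L2 peaks. The DHT list alone overlapped 43 (1.76%), beside 1.90% of all TCF7L2 peaks, and the vehicle list alone overlapped 15 (0.614%), beside 1.43%.

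H3K27Ac is common at promoters whether or not TCF7L2 is there, so genes were compared as well. H3K27Ac in either list was found over the promoter of 2245 of the 2576 genes with a promoter TCF7L2 peak (87.2%, 85.8% to 88.4%). It was found for 8913 of the 17245 genes without one (51.7%, 50.9% to 52.4%). Each mark was sought at any start of a gene, so the TCF7L2 and H3K27Ac peaks need not lie at the same start. The number of starts was not held equal. Of genes with 1 start 6.97% had a promoter TCF7L2 peak, and of those with 5 or more 19.3%. Turned round, 20.1% of genes with H3K27Ac at the promoter had a promoter TCF7L2 peak, against 3.82% of genes with none. The share climbed with the height of the DHT H3K27Ac peak. It was 3.92% for genes with no DHT peak, 12.9% at 1 to 24 tags, 19.4% at 25 to 49, 22.4% at 50 to 74, 26.9% at 75 to 99, and 25.2% (22.5% to 28.1%) at 100 tags or more, where the interval overlaps that of the class below. Among the promoter peaks that overlapped both lists, by contrast, TCF7L2 height did not follow H3K27Ac height, with a Spearman's rho of 0.01 for the DHT list and 0.01 for the vehicle list (n = 1865). These points share their libraries, and some share an H3K27Ac peak.

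Acetylation and height ran in opposite directions at promoters. Of promoter peaks of 23 to 29 tags 84.6% (82.1% to 86.7%) overlapped H3K27Ac, of those of 30 to 49 tags 78.1%, of those of 50 to 99 tags 73.0%, and of those of 100 tags or more 60.8% (52.0% to 68.9%). Among all other TCF7L2 peaks the share was 24.1%, 23.8%, 26.5% and 27.4% in the same classes. Distance from the start showed the same split. Peaks with the center more than 500 bp upstream overlapped H3K27Ac in 56.9% of 327 cases, and those within 250 bp upstream in 83.8% of 1359. The median height was 32 TCF7L2 tags for promoter peaks with H3K27Ac and 38 for those without. Base composition was not held equal in these comparisons. CpG-rich promoter peaks overlapped H3K27Ac in 88.9% of cases and CpG-poor ones in 67.6%. The CpG-rich share was 58.4% in the lowest height class and 28.0% in the highest.

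**Figure D2:**
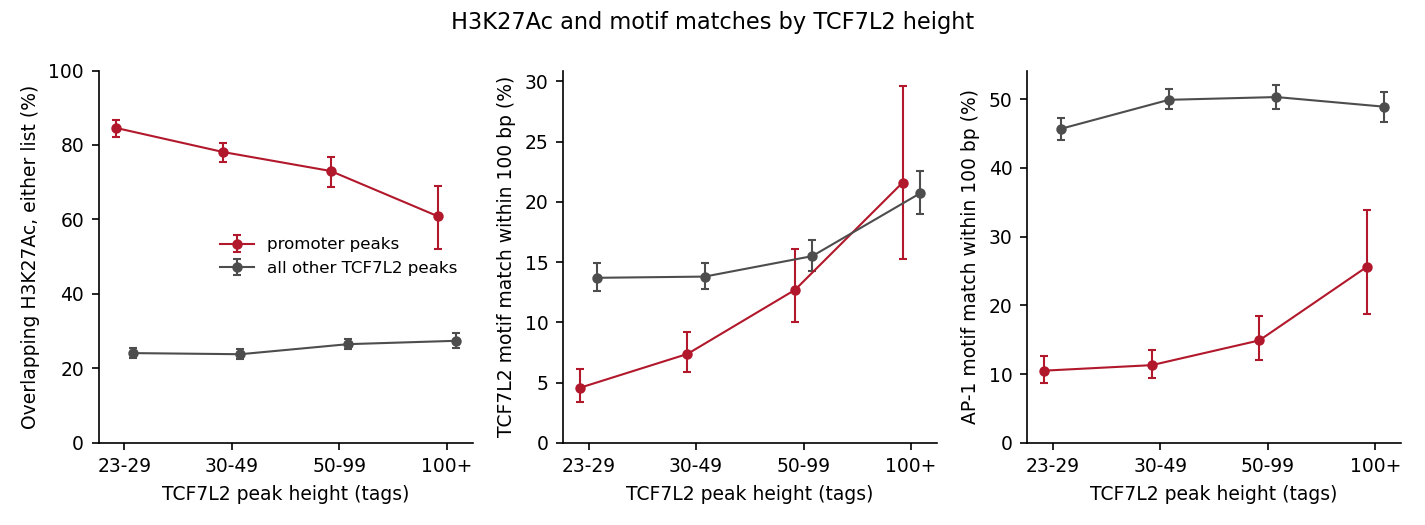
Share of TCF7L2 peaks that overlap H3K27Ac in either list (left), hold CTTTGAT (middle) or hold TGANTCA (right) within 100 bp of the center, by TCF7L2 height class in tags, for promoter peaks (red) and all other TCF7L2 peaks (grey), with 95% Wilson intervals as bars. Among promoter peaks H3K27Ac overlap falls from the lowest to the highest class while both motif shares climb (for TGANTCA not among promoter peaks without H3K27Ac), and the CTTTGAT share of the tallest class, 21.6%, lies within the interval of the other peaks' 20.7%. Base composition differs between the height classes and was not held equal.

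TCF7L2 motifs were rarer at promoter peaks than elsewhere, and much more frequent than at promoters in general. CTTTGAT lay within 100 bp of the center of 196 promoter peaks (8.03%, 7.01% to 9.17%), where the share over all TCF7L2 peaks was 14.1%. It was 15.7% for gene-body peaks and 14.6% for peaks between genes. In equally long stretches around all 19540 canonical starts the share was 0.967% (0.839% to 1.11%). A reordered control, TTCAGTT, had 2.33% at promoter peaks, 4.08% in gene bodies, 4.80% between genes and 1.82% at canonical starts. Base composition moved with these shares. CTTTGAT was found at 4.94% of CpG-rich and 11.4% of CpG-poor promoter peaks, and at 0.439% of CpG-rich and 1.91% of CpG-poor canonical starts. Looser letters, CTTTG with A or T at both of the next places, gave 24.1% at promoter peaks and 5.77% at canonical starts.

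At promoters, the motif share climbed with TCF7L2 height. It was 4.57% (3.41% to 6.11%) at 23 to 29 tags, 7.38% at 30 to 49 tags, 12.7% at 50 to 99 tags and 21.6% (15.3% to 29.6%) at 100 tags or more. Elsewhere it was 13.7% in the lowest and 20.7% (19.0% to 22.6%) in the highest class, so that the intervals of promoter and other peaks overlapped at 100 tags or more and not at 23 to 29. Promoter peaks with CTTTGAT had a median of 43.5 tags, and those without had 33. With H3K27Ac, the share was 3.90% (2.76% to 5.48%) in the lowest and 21.1% (13.4% to 31.5%) in the highest height class. Without H3K27Ac it was 8.28% (4.80% to 13.9%) and 22.4% (13.0% to 35.9%), and these intervals overlap. Base composition changed along the same classes, with 58.4% of promoter peaks CpG-rich in the lowest and 28.0% in the highest. Composition was not held equal, so its part in the climb was not tested.

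TGANTCA, which covers the letters of AP-1, split the promoter peaks by acetylation more strongly. AP-1 is the dimer of FOS and JUN proteins. TGANTCA was found at 303 promoter peaks (12.4%, 11.2% to 13.8%), where the share over all TCF7L2 peaks was 43.2%, and at 48.2% of gene-body peaks, 49.3% of peaks between genes and 3.07% of canonical starts. Promoter peaks with H3K27Ac held it in 7.90% of cases (6.78% to 9.20%) and those without in 29.1% (25.4% to 33.1%). The gap remained among CpG-poor promoter peaks, at 14.8% (12.5% to 17.5%) with H3K27Ac and 36.8% (32.1% to 41.7%) without. CTTTGAT was also rarer with H3K27Ac, at 6.81% (5.77% to 8.03%) with H3K27Ac and 12.5% (9.95% to 15.6%) without. Among CpG-rich promoter peaks it was at 4.32% (3.28% to 5.66%) with and 9.93% (6.01% to 16%) without. Among CpG-poor ones the intervals overlapped, at 10.4% (8.46% to 12.7%) with and 13.5% (10.4% to 17.3%) without. Both kinds of letters (CTTTGAT or CTTTGAA, and TGANTCA) stood together at 45 promoter peaks (1.84%, 1.38% to 2.46%), whose median height was 59 tags. They did so at 11.8% of all other TCF7L2 peaks, with a median of 49 tags. The 1786 promoter peaks (73.1%, 71.3% to 74.9%) with neither kind had a median of 31 tags, and elsewhere 34.0% of peaks had neither. By height class, the TGANTCA share of promoter peaks with H3K27Ac was 7.17%, 6.11%, 10.5% and 21.1% from the lowest to the highest, while without H3K27Ac it was 29%, 29.7%, 26.8% and 32.7%, with overlapping intervals.

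**Figure D3:**
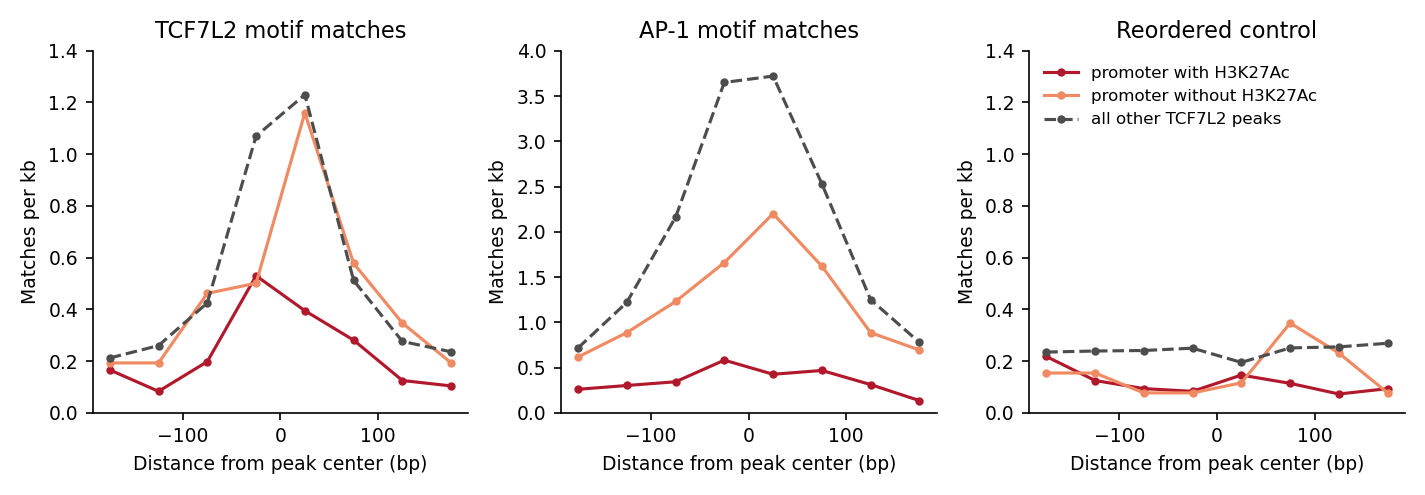
Density of CTTTGAT (left), TGANTCA (middle) and the reordered control TTCAGTT (right) in matches per kb on both strands, in bins of 50 bp around TCF7L2 peak centers, for promoter peaks with H3K27Ac (red), promoter peaks without (orange) and all other TCF7L2 peaks (dashed grey). CTTTGAT peaks at the center in each group, at 0.530 per kb for promoter peaks with H3K27Ac, 1.16 for those without and 1.23 elsewhere, and the control shows no central rise.

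Letters of general promoter factors followed the promoters themselves. CCGGAAG, recognized by ETS factors, was found at 14.1% of promoter peaks, 1.16% of gene-body peaks and 1.61% of peaks between genes, beside 11.3% of canonical starts. GGGCGG, the GC box of SP factors, had 40.9% at promoter peaks and 54.1% at canonical starts. TGACGTCA, the element of CREB factors, had 2.66% at promoter peaks, 0.276% in gene bodies and 2.03% at canonical starts. TGTTTAC, recognized by forkhead factors such as FOXA1, had 1.88% at promoter peaks and 4.83% in gene bodies. Among acetylated genes, canonical starts of genes with a promoter TCF7L2 peak at any of their starts held CTTTGAT in 1.20% of cases (0.829% to 1.75%). Canonical starts of genes with no promoter peak held it in 0.541% (0.409% to 0.717%). For CCGGAAG the shares were 18.7% (17.1% to 20.4%) and 16.8% (16.1% to 17.6%), and these intervals overlap.

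H3K27Ac over promoter TCF7L2 peaks was nearly as high with vehicle as with DHT. Over the 1865 promoter peaks in both lists, the median H3K27Ac height was 54 tags (quartiles 35 and 78) with DHT and 47 tags (30 and 69) with vehicle. The median log2 ratio of DHT over vehicle height was 0.18, where it was 0.12 over all TCF7L2 peaks in both lists, 0.05 over all other TCF7L2 peaks and 0.19 over the promoters of all genes. The DHT height was the larger at 1579 promoter peaks (84.7%), equal at 93 and the smaller at 193. After division by the median ratio of all TCF7L2 peaks the DHT height was the larger at 64.7%. Without read totals, a general difference in height between the DHT and vehicle lists cannot be told apart from one in depth.

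A DHT height at least 1.5 times the vehicle height was found at 78 promoter peaks (4.18%), where the share over all TCF7L2 peaks in both lists was 7.48%. The opposite was found at 2 (0.107%), where that share was 3.00%. After division by the median ratio the numbers were 40 and 8. By genes, 86 of 2191 with a promoter TCF7L2 peak (3.93%) had a promoter H3K27Ac height at least 1.5 times as large with DHT, beside 5.81% of all 10630 genes with promoter H3K27Ac in both lists. For vehicle over DHT it was 4 (0.183%), beside 0.630%. TCF7L2 height did not order these ratios, with a Spearman's rho of -0.02 (n = 1865).

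Some of the large ratios went with H3K27Ac peaks of unequal width, and the part of width in them was not tested beyond the counts given here. At 23 of the 78 promoter peaks (29.5%) the DHT H3K27Ac peak was at least 1.5 times as wide as the vehicle peak, where this held for 4.40% of all 1865. A peak height is that of its highest point, which in a wide peak can lie away from the TCF7L2 peak. At equal width, within 1.5 times, 54 of 1748 promoter peaks (3.09%) were at least 1.5 times as high with DHT and 0 were lower by the same fold. The width limit was not applied to all TCF7L2 peaks, so this share has no like background. Among peaks whose taller H3K27Ac height was at least 40 tags, the largest ratio was at RFX7, a factor of the RFX family, with 91 tags with DHT and 24 with vehicle, in H3K27Ac peaks 11849 and 1469 bp wide. ACTR1A, a dynactin subunit gene that shares its promoter with the hedgehog inhibitor SUFU, had 95 tags in the DHT list and 28 in the vehicle list, and widths of 10289 and 3299 bp. SLC16A6, of the monocarboxylate transporter family, had 165 tags with DHT and 62 with vehicle. APP, the amyloid precursor gene, had 72 tags with DHT and 29 with vehicle, in peaks of 4109 and 3089 bp, and was the only one of the 6 highest with widths within 1.5 times. The other 2 were C6orf52, beside PAK1IP1 (99 and 38 tags with DHT and vehicle), and JPT1 (55 and 23 tags).

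At the low end, HBP1, an HMG-box repressor gene, had 44 H3K27Ac tags with DHT and 68 with vehicle, and FOXJ3, a forkhead gene, had 81 with DHT and 123 with vehicle. Both H3K27Ac peaks were narrower with DHT, at 2999 bp with DHT and 4829 bp with vehicle for HBP1, and 4889 bp with DHT and 9749 bp with vehicle for FOXJ3. RBBP8 and NEDD9, a scaffold protein gene, had peaks of near-equal width. RBBP8 had 37 H3K27Ac tags with DHT and 53 with vehicle. NEDD9 had 58 with DHT and 78 with vehicle. RBBP8 also had one of the taller TCF7L2 peaks of this group, 125 tags with the CTTTGAT shown above. SECISBP2L (37 tags with DHT, 54 with vehicle) and ANKRD6 (37 with DHT, 49 with vehicle) make up the 6 lowest.

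**Figure D4:**
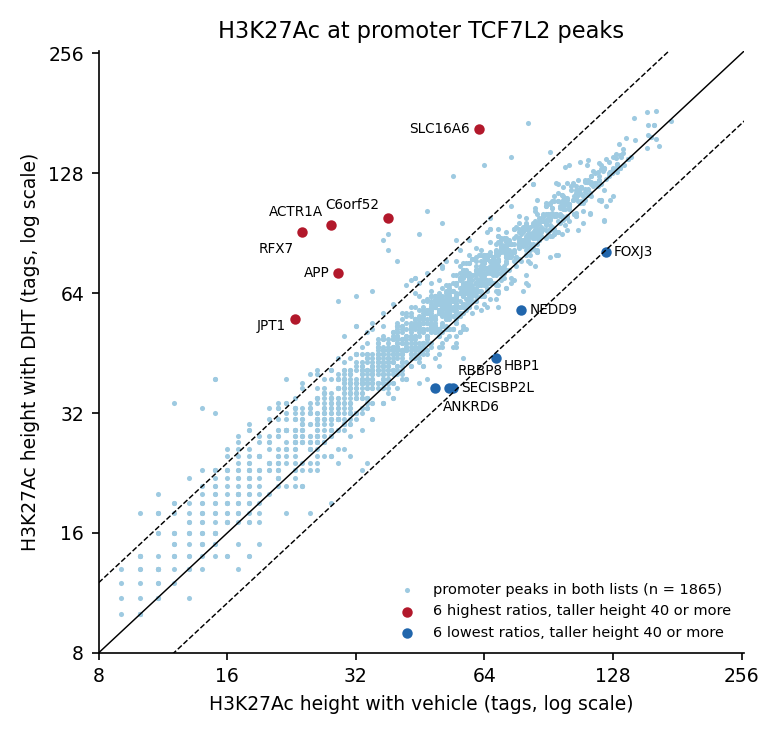
H3K27Ac height, in tags, over each promoter TCF7L2 peak with DHT (y axis) and with vehicle (x axis), both log scales, for the 1865 promoter peaks in both lists. The solid line marks equal heights and dashed lines mark 1.5 times either way. Most points lie between the lines and above the solid one, and only HBP1 and FOXJ3 (dark blue, with the other 4 lowest ratios) reach the lower dashed line. Dark red points are the 6 highest ratios, and both named sets have a taller height of at least 40 tags.

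Wnt target genes held the highest share of promoter TCF7L2 peaks among the lists compared. Of 19, 12 had one (63.2%, 41% to 80.9%), where the share over all genes was 13.0%, and at a minimum of 41 TCF7L2 tags 10 still had one (52.6%), beside 4.61% of all genes. SP5 had 172 tags, AXIN2 162, DKK1, a secreted Wnt inhibitor, 159, and MYC, a growth regulator, 91. TNFRSF19, NKD1 and ZNRF3 had 57, 51 and 51 tags, RNF43 had 48 in the tallest of 3 peaks, and CCND1, NOTUM, TCF7 and EPHB3 had 44, 42, 39 and 28. Of the 12, 7 had no H3K27Ac peak over the promoter in either list (SP5, DKK1, NKD1, NOTUM, TCF7, TNFRSF19 and EPHB3), whereas 87.2% of all genes with a promoter TCF7L2 peak had one. The acetylated ones had similar heights in both conditions. MYC had 107 H3K27Ac tags with DHT and 101 with vehicle, RNF43 had 88 with DHT and 84 with vehicle, and AXIN2 had 41 with DHT and 35 with vehicle. APCDD1, ASCL2, CD44, EPHB2, LEF1, LGR5 and SOX4 had no promoter TCF7L2 peak, and of these SOX4 had the most H3K27Ac, 101 tags with DHT and 94 with vehicle.

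Components of the Wnt pathway, 33 of 40 acetylated, had promoter TCF7L2 peaks at 16 of 40 genes (40%, 26.3% to 55.4%). The share was 13.0% over all genes and 20.1% over genes with promoter H3K27Ac. The tallest were at CSNK1A1, a kinase of the complex that destroys beta-catenin (107 tags), TCF7L2 itself (78 tags), the corepressor TLE3 (76 tags) and the coreceptor LRP6 (69 tags). CTNNB1, which encodes beta-catenin, had 35 tags. At TCF7L2 the promoter H3K27Ac was low, with 22 tags with DHT and 18 with vehicle, while TLE3 had 134 with DHT and 136 with vehicle. At the minimum of 41 tags 6 of the 40 remained (15%), beside 4.61% of all genes.

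Androgen-induced genes had promoter TCF7L2 peaks about as often as acetylated genes in general. Of 30 androgen-induced genes 6 had a promoter TCF7L2 peak (20%, 9.51% to 37.3%), beside 20.1% of genes with promoter H3K27Ac. ZBTB10, a zinc finger gene, had 107 TCF7L2 tags, with 77 H3K27Ac tags with DHT and 40 with vehicle. MPHOSPH9, a centriole protein gene, had 48 TCF7L2 tags, with 141 H3K27Ac tags with DHT and 74 with vehicle, and ABCC4, an export pump, had 44, with 61 with DHT and 29 with vehicle. NCAPD3, of the condensin complex, had 31, with 60 with DHT and 39 with vehicle. CENPN and NDRG1 had ratios of 1.30 and 1.09. The median DHT over vehicle ratio was 1.71 over these 6 genes and 1.61 over the 19 androgen-induced genes in both H3K27Ac lists with no promoter TCF7L2 peak. Of 13 androgen-repressed genes, TRIB1, a pseudokinase gene, was the only one with a promoter TCF7L2 peak (66 tags), with 80 H3K27Ac tags with DHT and 64 with vehicle.

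Genes of basic cell machinery, nearly all acetylated, had promoter TCF7L2 peaks more often than all genes in 5 lists. The share was 35.9% for proteasome subunits (14 of 39), 32.6% for splicing factors (15 of 46), 29.1% for cytosolic ribosomal proteins (23 of 79), 28.2% for mitochondrial ribosomal proteins (22 of 78) and 27% for subunits of respiratory complex I (10 of 37). The lower Wilson limits were 22.7% for proteasome subunits, 20.9% for splicing factors and 20.3% for cytosolic ribosomal proteins, above the 20.1% of acetylated genes. For mitochondrial ribosomal proteins and complex I subunits they were 19.4% and 15.4%, so those intervals include 20.1%. Median TCF7L2 heights lay between 33 and 36 tags, beside 33 for all promoter peaks, and the tallest were at RPS27, at the splicing factor genes SNRPC and SRSF1 (121 and 119 tags) and at the proteasome gene PSMA6 (112 tags). At the minimum of 41 tags, 5 of 39 proteasome, 5 of 46 splicing, 6 of 79 cytosolic ribosomal, 5 of 78 mitochondrial ribosomal and 3 of 37 complex I genes remained. The share of all genes, acetylated or not, was 4.61% at that minimum. That of acetylated genes was not computed there, so these small counts cannot be set against it. Aminoacyl-tRNA synthetases, 38 of 38 acetylated, had 4 of 38 (10.5%, 4.17% to 24.1%), with NARS1 (48 tags) the tallest. DNA replication genes had 7 of 39 (17.9%, 8.98% to 32.7%), the tallest at ORC2 (67 tags). Housekeeping genes had 4 of 15 (26.7%, 10.9% to 52.0%), among them ACTB, which encodes beta-actin, with 39 tags. The intervals of synthetase, replication and housekeeping genes each include the 13.0% of all genes and the 20.1% of acetylated genes.

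Other families are given beside the 13.0% of all genes, the 20.1% of genes with promoter H3K27Ac and the 3.82% of genes without. Promoter H3K27Ac was found for 82.8% of ZNF genes with a number and 76.6% of replication-dependent histone genes. It was found for 20% of stromal, 10% of neuroendocrine and 3.09% of olfactory receptor genes. The ZNF genes had promoter peaks in 63 of 476 cases (13.2%, 10.5% to 16.6%), led by ZNF503 with 117 tags. The histone genes had them in 7 of 64 (10.9%, 5.40% to 20.9%), led by H2AC11 with 65. Of 20 immediate early genes 6 had one (30%, 14.5% to 51.9%), EGR3 the tallest with 91 tags and no H3K27Ac. Of 20 transcription regulators of prostate cancer risk loci 4 had one (20%, 8.07% to 41.6%). ZBTB38, a zinc finger factor that binds methylated DNA, had 167 TCF7L2 tags, with 45 H3K27Ac tags with DHT and 49 with vehicle, and MYC, VDR (79 tags) and MDM4 (51 tags) were the others. Neuroendocrine genes had 2 of 10 (NCAM1 and SCG2, 44 tags each) and stromal genes 2 of 10 (VIM with 69 tags and FBLN1 with 35), each 20% (5.67% to 51.0%), and these 4 genes had no H3K27Ac over the promoter. KRTAP2-3 and KRTAP2-4 were the only ones of 94 keratin-associated protein genes, with 31 and 26 tags. Olfactory receptor genes had 0 of 388, which allows a share of up to 0.773% when 3 counts are taken as the limit (Wilson upper limit 0.980%). Leukocyte and endothelial genes had 0 of 10 and 0 of 9. Their Wilson upper limits, 27.8% and 29.9%, lie above the 13.0% of all genes.

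**Figure D5:**
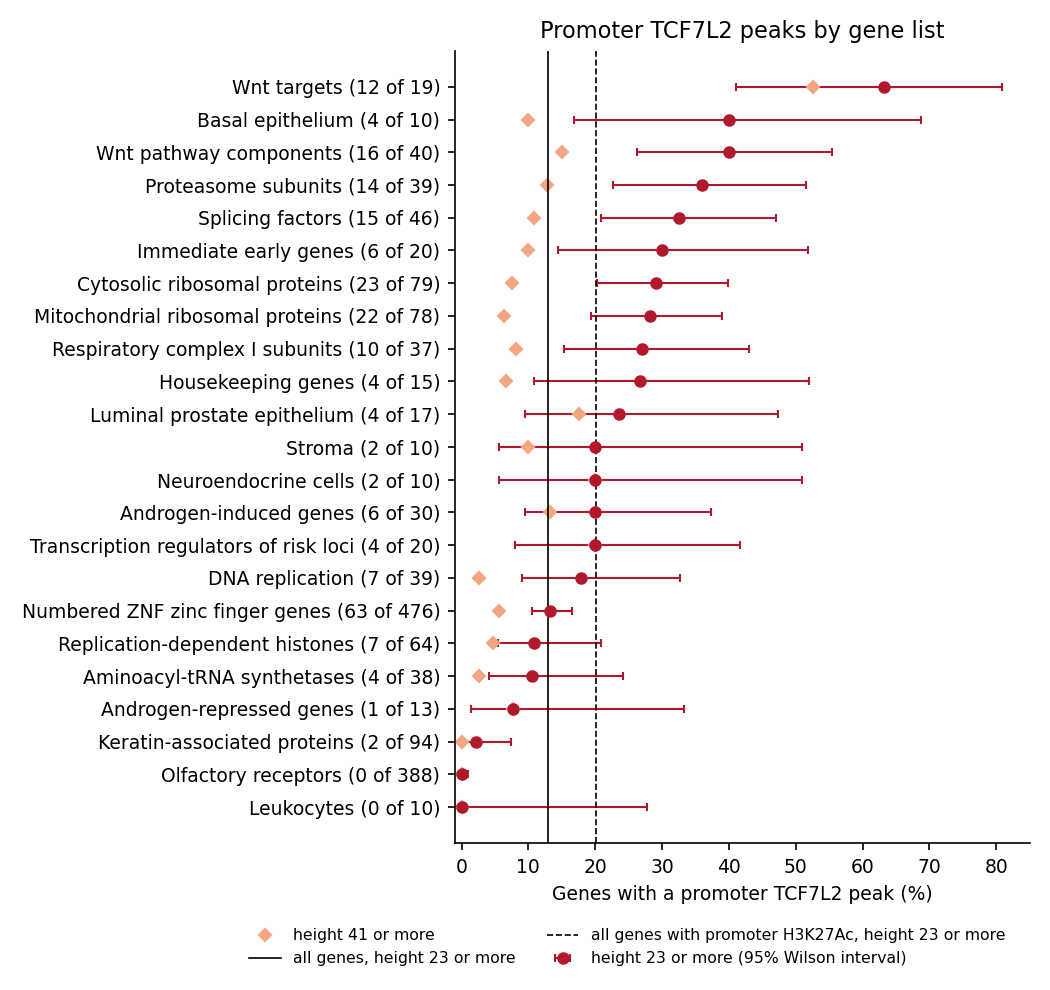
Percentage of genes with a promoter TCF7L2 peak in each list of 10 or more genes, at a minimum of 23 tags (red points with 95% Wilson intervals) and of 41 tags (orange diamonds). The vertical lines mark all genes (13.0%, solid) and all genes with promoter H3K27Ac (20.1%, dashed) at 23 tags. Wnt targets stand at 63.2% and 52.6%. At 41 tags the share of all genes was 4.61%, and the 5 lists of proteasome, splicing, ribosomal and complex I genes lie between that and 13.0%. The share of acetylated genes at 41 tags was not computed.

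Genes with a promoter TCF7L2 peak also had other TCF7L2 peaks nearby more often. Within 50 kb of the canonical start, a TCF7L2 peak that was not over any promoter was found for 43.0% (41% to 45.1%) of acetylated genes with a promoter peak and for 35.2% (34.3% to 36.2%) of acetylated genes with none. Among genes with no promoter H3K27Ac it was 60.4% (55.1% to 65.5%) with a promoter peak and 30.5% (29.5% to 31.5%) with none. The mean number of such peaks per gene was 1.34 for the 331 unacetylated genes with a promoter peak, the highest of the 4 groups, and 0.493 for unacetylated genes with none. Neighboring genes can share these peaks.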

How the data were processed

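ChIP-seq of LNCaP cells gave 1 peak list for TCF7L2 and 1 each for H3K27Ac with DHT and with vehicle. Per the study's methods, H3K27Ac reads were aligned with Bowtie 2 and TCF7L2 reads with ELAND, while the submitters' processing notes also name BWA and CASAVA, so the aligner of each list is not settled. The authors called peaks in each library by itself with Sole-search against input, with a stricter limit for H3K27Ac. Each deposited peak height is a signal value, the whole-tag height of the pileup, and no source says that it was scaled to read depth. Coordinates are hg19, read as 1-based.

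Promoters were taken from 89204 protein-coding transcripts (78569 starts) of 19821 genes of GENCODE 44 mapped to GRCh37. TCF7L2 peaks of at least 23 tags were sorted into promoter peaks (at least 1 bp shared with -1000 to +100 bp of a start), gene-body peaks and the rest. For H3K27Ac the tallest overlapping peak of each list was used, and heights were compared as DHT over vehicle with a fold of 1.5. Letters were searched on both strands within 100 bp of the peak center, the midpoint of the peak interval, and canonical starts served as their background. CpG-rich means at least 55% G and C and an observed over expected CpG of at least 0.65. Shares have 95% Wilson intervals. With 1 library per condition nothing was tested between conditions, and the replicate error is unknown.

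The members and gene lists were chosen with earlier results of these data known. Of 426 list entries, 2 matched through an older symbol and 1 (PECAM1) was not matched. The genes named are the 15 tallest promoter peaks, the 6 tallest without H3K27Ac, the 6 highest and 6 lowest DHT over vehicle ratios with a taller height of at least 40 tags, the 4 tallest of each list and the 4 genes with the most promoter peaks. Some genes that this rule names are not reported here. List members named beyond these were taken after their values were seen. Alternatives covered the height minimum, promoter window, annotation, overlap, fold, scaling, and motif letters and distance. The overlap, height and motif steps were tested on simulated data. Python 3.11.15 was used with numpy 2.4.6, pandas 2.3.3, scipy 1.17.1, statsmodels 0.14.6, pyfaidx 0.9.0.4 and matplotlib 3.10.9.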

Additional observations from a re-analysis of the deposited data

How the results depend on the processing

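A height minimum of 30 tags left 1502 promoter TCF7L2 peaks and one of 41 tags left 844. The H3K27Ac overlap of promoter peaks was 65.9% with the 25000 tallest H3K27Ac peaks of each list (16.4% for other TCF7L2 peaks), 81.2% with a window of -500 to +100 bp, 73.6% with -2000 to +500 bp and 72.5% at a height minimum of 41. Promoter peaks with a DHT height at least 1.5 times the vehicle height numbered 40 after division by the median ratio, 40 among those with a taller height of at least 40 tags, and 20 at a fold of 2. For vehicle over DHT the numbers were 8 after division, 0 at a fold of 2 and 0 with H3K27Ac widths within 1.5 times of each other. The share with CTTTGAT was 5.32% within 50 bp, 10.5% within 200 bp and 24.1% with the looser letters, and for TGANTCA it was 7.13% within 50 bp and 18.0% within 200 bp. The TGANTCA distances and the width limit were chosen after seeing the data. Of the main results, 17 of these recomputed values moved and 17 did not. Among gene lists and secondary shares and counts 26 moved and 59 did not. The 26 include the share of TCF7L2 peaks over promoters under each alternative run for it. They also include most gene-list shares at a height minimum of 41. A reversed direction was looked for only in the median log2 ratio of DHT over vehicle, and none was found there. No paired analysis was possible because each condition had 1 library. What limits these data is the single library per condition, the missing read totals, and the different serum and passage of the TCF7L2 cells.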
